A study of Mus musculus with 27 samples.

Results

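Tbx21, Zeb2, Zbtb32, Cxcr3, Itgax and Itgam are 6 genes associated with T-bet-positive B cells, also called atypical or age-associated B cells. They were taken by name from the 35604 genes of a table of transcript levels, and all 6 were listed in all 27 libraries. The choice was made with earlier results of these data known. The libraries were made from polyadenylated RNA of primary splenic B cells of wild-type mice, either naive and uncultured (0 h) or stimulated ex vivo for 6 or 24 h, to ask how IL-21 acts on B cells. Stimulated cells received anti-CD40 antibody (clone HM40-3, 1 µg/mL), which stands in for T cell help through CD40, with or without the cytokines IL-4 (12.5 ng/mL) and IL-21 (50 ng/mL). At each time the groups were anti-CD40 with IL-4 and IL-21, anti-CD40 with IL-21, anti-CD40 with IL-4, and anti-CD40 alone, so that no cultured group lacked anti-CD40. Naive cells form the remaining group, and each of the 9 groups holds 3 libraries. Strain, age and the number of animals are not given in the sources used here. Since the labels do not say whether replicates are different animals or cultures, the p-values reflect spread between these libraries only, and that spread may be technical.

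T-bet, encoded by Tbx21, is a T-box transcription factor best known for directing type 1 responses of T cells and for maturation of NK cells. In B cells it accompanies class switching to IgG2 isotypes and marks a population found in ageing, infection and autoimmunity that carries the integrins CD11c (Itgax) and CD11b (Itgam) and the chemokine receptor CXCR3. IL-21 signals mainly through STAT3 and IL-4 mainly through STAT6, and IL-4 is known to restrain T-bet-positive B cells. Zeb2 encodes a zinc-finger E-box-binding repressor that is required for age-associated B cells in mice, and Zbtb32 encodes a zinc-finger repressor known to restrain memory B cell recall responses.

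Start-site windows are shown for Tbx21 and Itgax, which were higher with IL-21 at 24 h and lower where IL-4 was present too, and for Zeb2, which was higher with IL-21 with and without IL-4. Each window runs from 250 bases before to 50 bases after the RefSeq start (GRCm38.p6), written 5′ to 3′ on the gene's strand, and capitals mark matches to the motifs searched. The motifs, read on both strands, were TTCNNNGAA (a STAT site) and the same with 4 bases between its arms, GGTGTGA (part of a T-box site), TGANTCA (an AP-1 site) and CAGGTG (an E-box of the kind ZEB proteins bind). The Tbx21 window lies at chr11:97115282-97115581 on the minus strand, the Itgax window at chr7:128129300-128129599 on the plus strand and the Zeb2 window at chr2:45117393-45117692 on the minus strand.
Tbx21: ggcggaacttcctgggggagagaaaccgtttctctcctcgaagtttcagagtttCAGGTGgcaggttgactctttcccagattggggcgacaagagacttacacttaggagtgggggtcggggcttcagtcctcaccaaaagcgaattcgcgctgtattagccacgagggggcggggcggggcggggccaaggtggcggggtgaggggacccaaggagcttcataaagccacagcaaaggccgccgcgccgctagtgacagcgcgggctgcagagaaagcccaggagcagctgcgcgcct
Itgax: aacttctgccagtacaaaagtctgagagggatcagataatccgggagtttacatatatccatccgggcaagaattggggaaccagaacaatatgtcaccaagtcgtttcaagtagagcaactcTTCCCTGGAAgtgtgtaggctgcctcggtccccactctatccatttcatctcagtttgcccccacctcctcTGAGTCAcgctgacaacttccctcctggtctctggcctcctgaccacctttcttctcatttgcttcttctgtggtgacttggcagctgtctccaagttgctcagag
Zeb2: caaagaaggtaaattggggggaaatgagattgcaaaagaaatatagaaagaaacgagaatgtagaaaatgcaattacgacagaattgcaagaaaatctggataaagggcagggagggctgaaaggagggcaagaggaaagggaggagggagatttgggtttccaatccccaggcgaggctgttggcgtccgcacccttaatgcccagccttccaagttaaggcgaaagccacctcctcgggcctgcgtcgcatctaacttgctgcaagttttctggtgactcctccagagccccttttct
In the Tbx21 window CAGGTG begins at -196 from the start site. The Itgax window holds TTC and GAA with 4 bases between them at -127 and TGANTCA at -56, and the Zeb2 window shown, the one nearest the annotated start, holds no match. Of the other 3 RefSeq windows of Zeb2, 2 that overlap hold TTCNNNGAA, and 1 holds TGANTCA and the STAT site with 4 bases between its arms. Among the rest, Cxcr3 has CAGGTG on the opposite strand at -116, and neither the 2 windows of Zbtb32 nor the window of Itgam hold a match. Among all 32851 RefSeq windows of this length, CAGGTG occurs in 20.2%, TTCNNNGAA in 8.3%, TGANTCA in 7.81%, the STAT site with 4 bases between its arms in 6.95% and GGTGTGA in 3.98%. These letters occur often, and a match or its absence says nothing here about binding.

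Levels are in TPM, a unit of transcript abundance that corrects for transcript length and keeps no sequencing depth, so the precision of low values is unknown. Comparisons are differences of log2(TPM + 1) ± standard error from a limma model of all 27 libraries, with p-values adjusted over 12147 genes by the Benjamini-Hochberg method. Calls, and the words rose, fell, raised and lowered, refer to an adjusted p below 0.05. The pseudocount of 1 TPM shrinks differences of genes near or below 1 TPM. B cell markers were present in every library, with summed levels of 7 genes from 443 to 4349 TPM, but the sums were lower with IL-21. On anti-CD40 they were 443 to 718 TPM with IL-21 against 1413 to 2542 TPM without it at 6 h, and 1481 to 2027 against 3387 to 3756 TPM at 24 h. With IL-4 present they were 673 to 1107 TPM with IL-21 against 1305 to 2171 TPM without it at 6 h, and 1869 to 1938 against 1843 to 2446 TPM at 24 h, where they overlapped. At 24 h the median gene itself shifted: by 0.23 with IL-21 on anti-CD40, by 0.38 with IL-21 on anti-CD40 and IL-4, by -0.14 with IL-4 on anti-CD40 and IL-21, and by -0.31 with IL-4 on anti-CD40. After median-of-ratios rescaling, which brings these 4 medians to between -0.0065 and 0.0046, the value of a member is given wherever its call changed. At 24 h mitochondrial transcripts made up 6.56% to 8.14% with anti-CD40 and IL-21 and 6.97% to 8.04% with IL-4 and IL-21, against 7.89% to 11.63% with IL-4 alone and 8.51% to 11.84% with anti-CD40 alone. Ribosomal protein transcripts made up 19.03% to 25.31% and 23.32% to 23.59% in the 24 h groups with IL-21, against 23.77% to 31.08% and 26.31% to 30.62% in those without it. The part of these shifts and of the B cell marker sums in the IL-21 differences was not tested. Within groups, replicate 1 of the naive libraries (5.5%, against 12.71% and 13.54%), replicate 1 of the IL-4 group without IL-21 at 24 h (7.89%, against 11.63% and 10.97%), and replicate 3 of the 6 h groups with IL-4 alone (6.91%) and with IL-21 alone (7.27%) had the low mitochondrial shares.

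**Figure D1:**
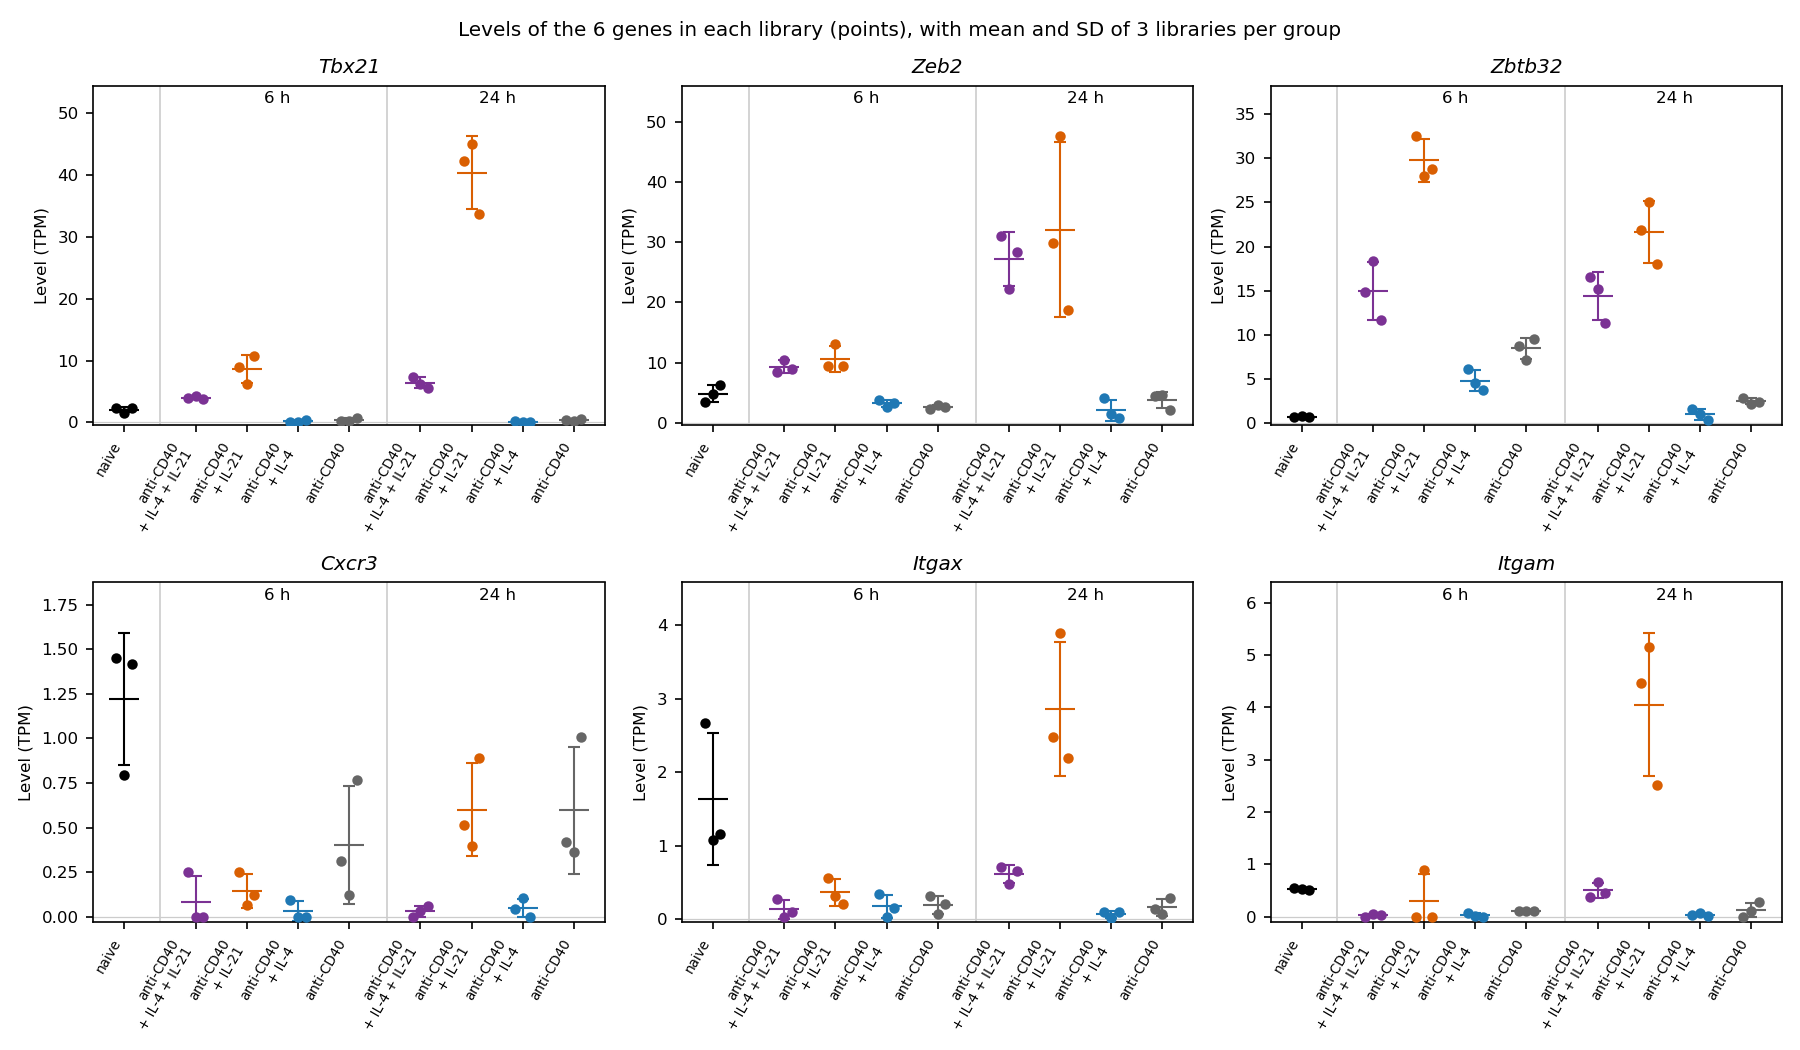
Level in TPM (y axes, linear) of each gene in each of the 27 libraries (points), by group along the x axis at 0 h (naive), 6 h and 24 h, with bars for mean and SD (n = 3). Tbx21 reached 33.6 to 44.9 TPM with anti-CD40 and IL-21 at 24 h, Zeb2 was high in both 24 h groups with IL-21, Zbtb32 was high with IL-21 at both times, and Cxcr3 was highest in naive cells.

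Tbx21 (ENSMUSG00000001444, chr11:97098071-97115331, minus strand, GRCm38) was present at a low level in naive cells, lower with anti-CD40 alone, and higher in every group with IL-21. Naive libraries had 2.38, 1.55 and 2.33 TPM. At 6 h, Tbx21 had 8.99, 6.20 and 10.8 TPM with anti-CD40 and IL-21, against 0.264, 0.230 and 0.704 TPM with anti-CD40 alone. After 24 h the values were 42.3, 44.9 and 33.6 TPM with anti-CD40 and IL-21, against 0.360, 0.242 and 0.625 TPM with anti-CD40 alone. At both times every library with IL-21 lay above every library without it, and the 3 libraries with anti-CD40 and IL-21 at 24 h lay above all 24 others. The difference was 2.77 ± 0.21 at 6 h (adjusted p = 5.11e-09, n = 3 per group) and 4.87 ± 0.21 at 24 h (adjusted p = 2.64e-13). In ratios of mean TPM these were 21.7-fold and 98.5-fold. The IL-21 effect was larger at 24 h than at 6 h by 2.10 ± 0.30 (adjusted p = 0.000113). With a pseudocount of 0.1 TPM this growth with time was 2.15 and was not called (adjusted p = 0.0723).

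With IL-4 present as well, Tbx21 was still higher with IL-21, to a smaller level. At 6 h it had 3.89, 4.21 and 3.75 TPM with IL-4 and IL-21, against 0.0782, 0.0978 and 0.464 TPM with IL-4 and no IL-21. By 24 h Tbx21 stood at 7.39, 6.22 and 5.60 TPM with IL-4 and IL-21, against 0.260, 0.0226 and 0.0863 TPM with IL-4 and no IL-21. The groups did not overlap at either time, and the difference was 2.04 ± 0.21 at 6 h (adjusted p = 1.21e-06) and 2.72 ± 0.21 at 24 h (adjusted p = 3.5e-09). Its growth with time, 0.68 ± 0.30, did not pass (adjusted p = 0.218).

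Set against IL-21 without IL-4, adding IL-4 lowered Tbx21 at 24 h, with a difference of -2.48 ± 0.21 (adjusted p = 2.05e-08) and a ratio of mean TPM of 0.159. At 6 h the difference was -0.94 ± 0.21 (adjusted p = 0.00931) and the ratio 0.456. All 3 libraries with IL-4 and IL-21 lay below all 3 with IL-21 alone at each time. The 6 h call was lost when only the 2 compared groups were fitted (adjusted p = 0.148), with a pseudocount of 0.1 TPM (adjusted p = 0.272) and without anti-CD40 and IL-21 replicate 3 (-0.78, adjusted p = 0.0599). IL-4 added to anti-CD40 without IL-21 gave -0.20 ± 0.21 at 6 h (adjusted p = 0.859) and -0.32 ± 0.21 at 24 h (adjusted p = 0.26), where Tbx21 was below 1 TPM in all 12 libraries. With a pseudocount of 0.1 TPM the 24 h difference was -1.26 and was called (adjusted p = 0.0374).

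Ordered by mean level, Tbx21 ran from anti-CD40 and IL-21 at 24 h (40.3 ± 5.89 TPM, SD, n = 3) through the same stimulation at 6 h (8.66 ± 2.31), IL-4 and IL-21 at 24 h (6.40 ± 0.910) and at 6 h (3.95 ± 0.236), and naive cells (2.08 ± 0.466) to the 4 groups cultured without IL-21 (0.123 to 0.409 TPM). Neighbours in this order overlapped between anti-CD40 and IL-21 at 6 h and both cytokines at 24 h and among the 4 groups without IL-21.

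Zeb2 (ENSMUSG00000026872, chr2:44983632-45117395, minus strand) was likewise higher with IL-21, and adding IL-4 to IL-21 gave no called difference. At 24 h it had 31.0, 22.2 and 28.4 TPM with IL-4 and IL-21, against 4.06, 1.44 and 0.809 TPM with IL-4 and no IL-21. Without IL-4 it had 29.9, 47.6 and 18.8 TPM with IL-21, against 4.42, 4.68 and 2.21 TPM with anti-CD40 alone. No library with IL-21 at 24 h fell below 18.8 TPM and no other library of the series exceeded 13.1 TPM. The IL-21 difference at 24 h was 3.31 ± 0.33 with IL-4 (adjusted p = 1.61e-07) and 2.74 ± 0.33 without it (adjusted p = 1.96e-06).

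At 6 h, Zeb2 had 8.51, 10.5 and 8.99 TPM with IL-4 and IL-21, against 3.85, 2.64 and 3.31 TPM with IL-4 and no IL-21. Without IL-4 it had 9.39, 13.1 and 9.38 TPM with IL-21, against 2.35, 2.97 and 2.58 TPM with anti-CD40 alone. Libraries with IL-21 lay above those without in both settings, by 1.28 ± 0.33 with IL-4 (adjusted p = 0.0354) and by 1.66 ± 0.33 without it (adjusted p = 0.00137). The call with IL-4 at 6 h was marginal: it was lost in each of the 6 fits that left out 1 library (1.17 to 1.38, adjusted p 0.0665 to 0.156), with a pseudocount of 0.1 TPM (adjusted p = 0.0582) and with no filter on low values (adjusted p = 0.0729). The growth of the IL-21 effect from 6 to 24 h was 2.03 ± 0.47 with IL-4 (adjusted p = 0.0133) and 1.08 ± 0.47 without it (adjusted p = 0.253). The call with IL-4 was lost without anti-CD40 and IL-4 replicate 3 at 24 h (1.71, adjusted p = 0.0518) and when only the compared groups were fitted (adjusted p = 0.0599).

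IL-4 added to anti-CD40 and IL-21 changed Zeb2 by -0.15 ± 0.33 at 24 h, with a 95% interval of -0.83 to 0.54, and by -0.16 ± 0.33 at 6 h, with an interval of -0.84 to 0.53. Neither difference was called (adjusted p = 0.883 and 0.978), and after rescaling the 24 h value was 0.02. Added to anti-CD40 alone, IL-4 gave -0.71 ± 0.33 at 24 h (adjusted p = 0.105). That value moved to -1.14 and was called (adjusted p = 0.00473) without replicate 1 of anti-CD40 and IL-4 at 24 h, the library with the low mitochondrial share. Naive cells had 3.50, 4.75 and 6.32 TPM. An antisense gene, Zeb2os, and 4 small RNA genes overlap Zeb2, none of them used here, and the sources used here do not give the strand setting of the counting. Zeb1, the paralog of Zeb2, was called with IL-21 on anti-CD40 and IL-4 at 24 h (5.65 against 1.54 TPM, 1.42 ± 0.49, adjusted p = 0.0388), which rescaling ended (1.04, adjusted p = 0.119), and not with IL-21 on anti-CD40 (0.05 ± 0.49, adjusted p = 0.957).

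Zbtb32 (ENSMUSG00000006310, chr7:30589681-30598909, minus strand) rose with anti-CD40 alone, and its highest mean level came at 6 h, with anti-CD40 and IL-21. Naive libraries had 0.670, 0.862 and 0.696 TPM, the lowest mean of the 9 groups. With anti-CD40 alone it had 8.72, 7.17 and 9.55 TPM at 6 h and 2.90, 2.16 and 2.44 TPM at 24 h, all above every naive library. The rise over naive cells was 2.44 ± 0.23 at 6 h (adjusted p = 1.97e-08) and 1.00 ± 0.23 at 24 h (adjusted p = 0.00208).

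IL-21 raised Zbtb32 further at both times. With anti-CD40 and IL-21 it had 32.5, 28.0 and 28.8 TPM at 6 h and 21.8, 25.1 and 18.0 TPM at 24 h, against the values with anti-CD40 alone given above. These 6 libraries lay above every library without IL-21, and the differences were 1.70 ± 0.23 at 6 h (adjusted p = 1.62e-05) and 2.69 ± 0.23 at 24 h (adjusted p = 9.78e-09). With IL-4 and IL-21 it had 14.8, 18.3 and 11.7 TPM at 6 h, against 6.09, 4.58 and 3.80 TPM with IL-4 and no IL-21. Its 24 h values were 16.6, 15.2 and 11.4 TPM with IL-4 and IL-21, against 1.66, 1.01 and 0.405 TPM with IL-4 and no IL-21. Again the groups did not overlap, and the differences were 1.45 ± 0.23 at 6 h (adjusted p = 0.000255) and 2.96 ± 0.23 at 24 h (adjusted p = 2.56e-09). With IL-4 the effect of IL-21 was larger at 24 h than at 6 h by 1.505 ± 0.32 (adjusted p = 0.00699), a call lost when only the compared groups were fitted (adjusted p = 0.0961). Without IL-4 this growth was 0.98 ± 0.32 (adjusted p = 0.0885).

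IL-4 lowered Zbtb32 in part of the comparisons. On anti-CD40 and IL-21 the difference was -0.97 ± 0.23 at 6 h (adjusted p = 0.0121) and -0.56 ± 0.23 at 24 h (adjusted p = 0.166). The 6 h call was lost with a pseudocount of 0.1 TPM (adjusted p = 0.0955), when only the 2 groups were fitted (adjusted p = 0.0751) and in 3 of the 6 fits without 1 library, those without replicate 1 of the group with anti-CD40 and IL-21 and without replicate 1 or 3 of the group with both cytokines (-0.97 to -0.81). On anti-CD40 alone the difference was -0.83 ± 0.23 at 24 h (adjusted p = 0.00752), a call lost without anti-CD40 and IL-4 replicate 3 (-0.59, adjusted p = 0.0681) and when only the 2 groups were fitted (adjusted p = 0.113). At 6 h it was -0.71 ± 0.23 (adjusted p = 0.0896), and with the replicate number as a block, which paired these libraries, it was called (adjusted p = 0.0411), as it was after rescaling (-0.74, adjusted p = 0.0174).

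**Figure D2:**
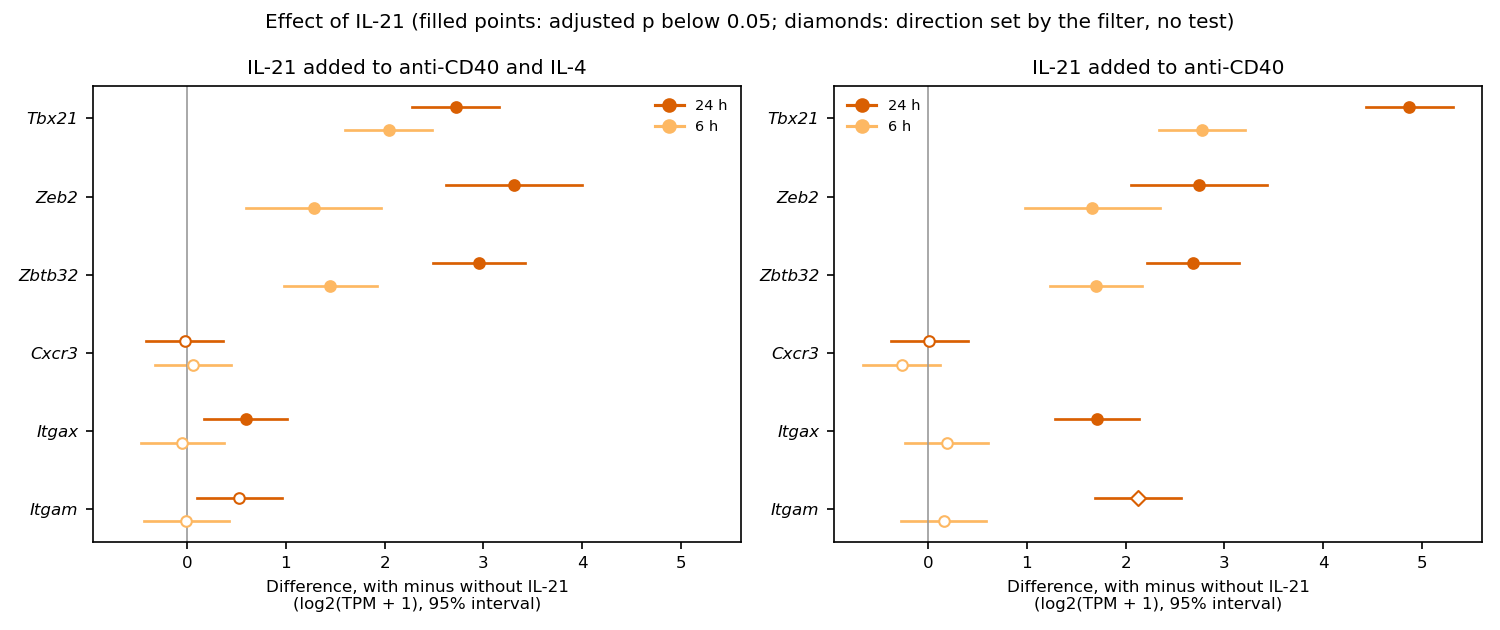
Difference in log2(TPM + 1) with minus without IL-21 (x axis) for each gene (y axis), on anti-CD40 and IL-4 (left) and on anti-CD40 (right), at 24 h and 6 h, with 95% intervals, and filled points where the adjusted p was below 0.05. The 3 transcription factor genes lie right of 0 in all 4 comparisons, Itgax reaches 1.71 on anti-CD40 at 24 h, the open diamond is Itgam (2.13), whose direction there was set by the filter, and Cxcr3 stays within -0.27 to 0.06.

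Itgax and Itgam encode the alpha chains CD11c and CD11b, which pair with the beta-2 chain encoded by Itgb2 and serve in adhesion and complement binding. Both were low in every group, had their highest cultured levels with anti-CD40 and IL-21 at 24 h, and were lower there when IL-4 was added. Itgam (ENSMUSG00000030786, chr7:128062640-128118491, plus strand) passed the filter on low values (1 TPM or more in 3 or more libraries) only through the 3 libraries with anti-CD40 and IL-21 at 24 h, and so had to be higher there, which leaves the filtered fit no test of Itgam against that group. Its 24 h values were 4.47, 5.16 and 2.52 TPM with anti-CD40 and IL-21, against 0, 0.113 and 0.275 TPM with anti-CD40 alone. These 3 libraries were the highest of the series for Itgam, and the difference was 2.13 ± 0.21. In the fit with no filter on low values, which Itgam enters whatever its level, the adjusted p was 1.68e-07. At 6 h Itgam was listed at 0, 0.891 and 0 TPM with anti-CD40 and IL-21, against 0.0996, 0.115 and 0.108 TPM with anti-CD40 alone. The 6 h groups overlapped, and the difference of 0.16 ± 0.21 was not called (adjusted p = 0.721) and changed sign between fits that left out 1 library (-0.15 to 0.31).

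With IL-4 and IL-21 at 24 h, Itgam had 0.383, 0.662 and 0.455 TPM, against 0.0246, 0.0690 and 0.0126 TPM with IL-4 and no IL-21. The groups did not overlap, yet the difference of 0.53 ± 0.21 missed the threshold (adjusted p = 0.0658), and with a pseudocount of 0.1 TPM it was 2.14 and called (adjusted p = 0.0231). In the 6 h libraries Itgam had 0, 0.0416 and 0.0289 TPM with IL-4 and IL-21, against 0.0713, 0.0114 and 0 TPM with IL-4 and no IL-21. That 6 h difference was not called. Set against IL-21 without IL-4 at 24 h, the difference of Itgam was -1.72 ± 0.21, with an adjusted p of 5.76e-06 in the fit with no filter. Naive libraries had 0.544, 0.527 and 0.508 TPM. The protein-coding gene Gm49368 overlaps Itgam on the same strand, was listed at 0.319 TPM or less in every library, and its reads may not be separable from those of Itgam.

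Itgax (ENSMUSG00000030789, chr7:128129547-128150657, plus strand) passed the filter through the naive libraries and those with anti-CD40 and IL-21 at 24 h. At 24 h it had 2.48, 3.89 and 2.19 TPM with anti-CD40 and IL-21, against 0.137, 0.0623 and 0.287 TPM with anti-CD40 alone. The groups stood far apart, with a difference of 1.71 ± 0.20 (adjusted p = 1.67e-06), while at 6 h the difference was 0.19 ± 0.20 (adjusted p = 0.645). With IL-4 and IL-21 at 24 h Itgax had 0.713, 0.475 and 0.659 TPM, against 0.0990, 0.0133 and 0.0915 TPM with IL-4 and no IL-21. Here the difference was 0.60 ± 0.20 (adjusted p = 0.0378), beside a shift of 0.38 of the median gene, and it was 0.49 after rescaling (adjusted p = 0.0332). The call was lost in 5 of the 6 fits without 1 library (adjusted p 0.0622 to 0.133) and held only without replicate 1 of anti-CD40 and IL-4. It was also lost with no filter on low values, where 3 members rather than 4 were called. IL-4 lowered Itgax with IL-21 at 24 h, with a difference of -1.23 ± 0.20 (adjusted p = 0.000259). At 6 h all 12 cultured libraries held between 0.0241 and 0.563 TPM, and no comparison of cytokines passed.

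The IL-21 effect was larger at 24 h than at 6 h on anti-CD40 by 1.52 ± 0.29 for Itgax (adjusted p = 0.00218), and for Itgam the value was 1.97 ± 0.29 (adjusted p = 0.000238 in the fit with no filter). On anti-CD40 and IL-4 the corresponding growth was 0.64 ± 0.29 for Itgax (adjusted p = 0.223) and 0.54 ± 0.29 for Itgam (adjusted p = 0.313). Itgb2, their shared partner chain, had 54.9 ± 19.3 TPM with anti-CD40 and IL-21 at 24 h and 9.25 ± 1.52 TPM with anti-CD40 alone (SD, n = 3 each; 2.39 ± 0.44, adjusted p = 0.000319). With IL-4 it had 30.1 ± 2.79 TPM with IL-21 and 7.40 ± 3.46 TPM without it (1.97 ± 0.44, adjusted p = 0.00307). Of the other alpha chains that pair with it, Itgal gave -0.77 with IL-21 on anti-CD40 at 24 h (adjusted p = 0.216), called as lower after rescaling (-1.04, adjusted p = 0.0322), and -0.13 with IL-4 present (adjusted p = 0.849). Itgad averaged 2.23 ± 1.38 TPM in naive cells and did not exceed 0.212 TPM in any cultured library.

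CD11c and CD11b also mark macrophages, dendritic cells and NK cells, so markers of those cells were read in the same libraries. Between the 24 h groups with anti-CD40 and IL-21 and with anti-CD40 alone, 12 macrophage and monocyte markers summed to 1.47 to 7.05 TPM against 5.10 to 9.20 TPM, and Cd68 and Fcgr1 were listed at 0 in all 6 libraries. Dendritic cell markers (9 genes) summed to 3.59 to 4.79 TPM against 3.29 to 6.67 TPM, with Clec9a and Clec10a at 0 in both groups. NK cell markers (9 genes) summed to 2.01 to 2.58 TPM against 0.919 to 1.17 TPM, with Klra8 at 0 in both groups, Klrb1c at 0 with IL-21 and Gzma at 0 with anti-CD40 alone. Most of this sum came from Prf1, the perforin gene, with 1.35, 1.35 and 1.60 TPM with IL-21, against 0.863, 0.617 and 0.845 TPM with anti-CD40 alone. The rest of the NK cell sum was also higher with IL-21. Neutrophil markers (7 genes) summed to at most 0.274 TPM in either group. T cell markers (9 genes) summed to 21.9 to 26.8 TPM with IL-21 against 18.7 to 31.6 TPM with anti-CD40 alone. Most of the dendritic cell sum was Zbtb46, with 2.14, 2.30 and 2.41 TPM with IL-21, against 4.58, 2.22 and 4.38 TPM with anti-CD40 alone. Flt3 of the same list had 0.576, 1.53 and 0.904 TPM with IL-21, against 0.0340, 0.0210 and 0.0910 TPM with anti-CD40 alone. The NK cell sum, Prf1 and Flt3 were thus higher where Itgax and Itgam were higher; the part of such cells in the result was not tested. In bulk RNA, fewer cells of a type and less RNA per cell cannot be told apart.

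Cxcr3 (ENSMUSG00000050232, chrX:101731535-101734269, minus strand) encodes the receptor for CXCL9 and CXCL10 and is a known T-bet target in T cells. It did not follow Tbx21 in these libraries. At 24 h Cxcr3 had 0.515, 0.394 and 0.891 TPM with anti-CD40 and IL-21, against 0.417, 0.366 and 1.01 TPM with anti-CD40 alone. These ranges overlapped almost wholly, with a difference of 0.01 ± 0.19 (95% interval -0.37 to 0.40, adjusted p = 0.97) that was -0.05 after rescaling. At 6 h it had 0.252, 0.0670 and 0.120 TPM with IL-21, against 0.312, 0.124 and 0.769 TPM with anti-CD40 alone (-0.27 ± 0.19, adjusted p = 0.427).

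With IL-4, Cxcr3 was at or near 0. The 24 h libraries were at 0, 0.0321 and 0.0605 TPM with IL-4 and IL-21, and at 0.0435, 0.103 and 0 TPM with IL-4 and no IL-21. At 6 h it was listed at 0.250, 0 and 0 TPM with IL-4 and IL-21, and at 0.0950, 0 and 0 TPM with IL-4 and no IL-21. All 6 libraries of the series at 0 held IL-4. At 24 h IL-4 lowered Cxcr3, with a difference of -0.58 ± 0.19 on anti-CD40 (adjusted p = 0.0204) and of -0.62 ± 0.19 on anti-CD40 and IL-21 (adjusted p = 0.0462), and in both cases every library with IL-4 lay below every library without it. Both calls were marginal: the first was lost without anti-CD40 replicate 3 (-0.41, adjusted p = 0.1498) or anti-CD40 and IL-4 replicate 3 (-0.55, adjusted p = 0.0743), and the second in 5 of 6 fits without 1 library (adjusted p 0.0837 to 0.162) and after rescaling (-0.51, adjusted p = 0.0879). When only the 2 groups were fitted neither was called (adjusted p = 0.0772 and 0.0857). Cxcr3 passed the filter on only 3 libraries, 2 naive and 1 with anti-CD40 alone at 24 h, and its ligand genes were low in cultured cells, where Cxcl9 did not exceed 0.776 TPM and Cxcl10 did not exceed 1.15 TPM.

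**Figure D3:**
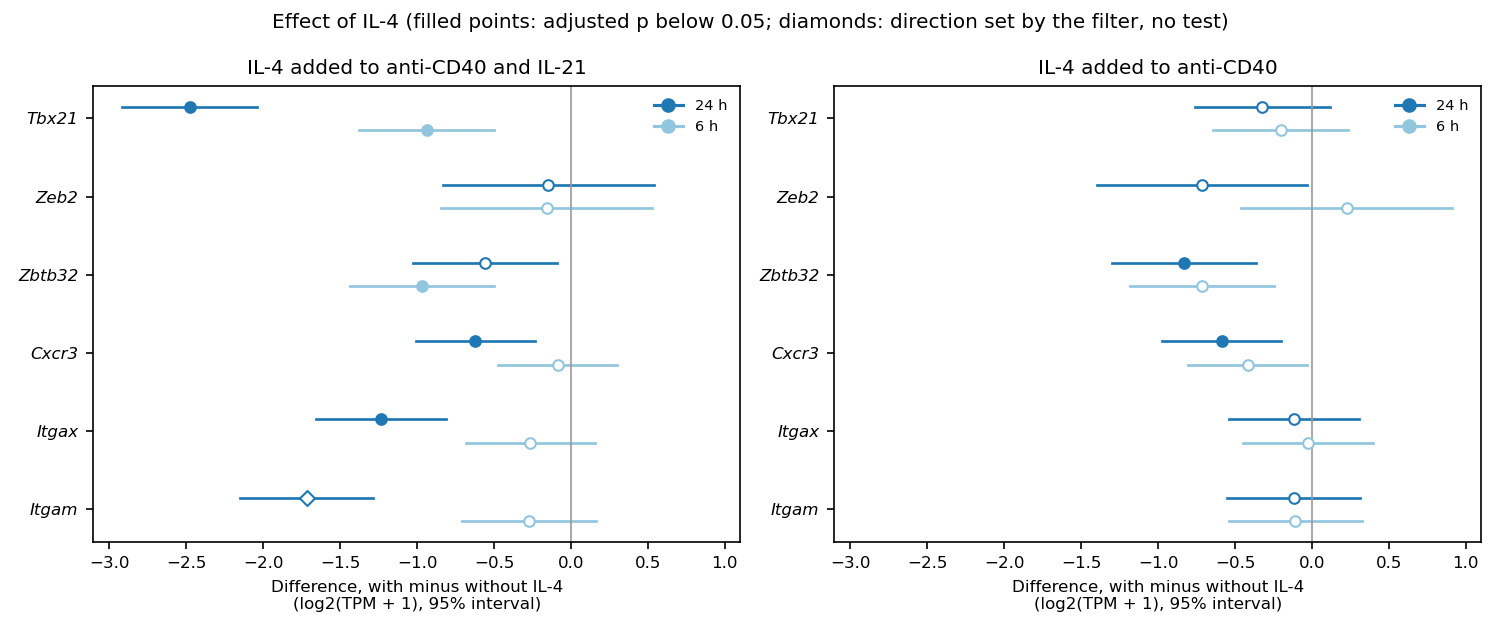
Difference in log2(TPM + 1) with minus without IL-4 (x axis) for each gene (y axis), on anti-CD40 and IL-21 (left) and on anti-CD40 (right), at 24 h and 6 h, with 95% intervals, and filled points where the adjusted p was below 0.05. On anti-CD40 and IL-21 at 24 h Tbx21 (-2.48) and Itgax (-1.23) lie far left of 0, as does the open diamond of Itgam (-1.72), whose direction was set by the filter, while the interval of Zeb2 (-0.15) spans it.

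Itgam is left out of counts that involve anti-CD40 and IL-21 at 24 h, where its direction was fixed, so those are counts of 5 genes. IL-21 on anti-CD40 raised 3 of 6 at 6 h, where 12.1% of all tested genes were called in either direction, and 4 of 5 at 24 h, where 24.2% were called. On anti-CD40 and IL-4 it raised 3 of 6 at 6 h (2.54% of all genes called) and 4 of 6 at 24 h (24.2% called). Of the genes called at 24 h over the whole table, 2167 were higher and 769 lower with IL-21 on anti-CD40, and 2651 higher and 290 lower on anti-CD40 and IL-4. After rescaling these splits were 1591 higher and 1278 lower, and 1215 higher and 1393 lower, and again 4 of 5 and 4 of 6 of the genes were called. IL-4 on anti-CD40 and IL-21 lowered 2 of the 6 at 6 h (4.16% of all genes called) and 3 of 5 at 24 h (6.75% called, 270 higher and 550 lower, or 404 and 459 after rescaling). IL-4 on anti-CD40 lowered 2 of 6 at 24 h (31.4% called, 1006 higher and 2810 lower, or 2303 and 1969 after rescaling). At 6 h it changed 0 of 6 by limma (4.04% called); 2 genes, Zbtb32 and Cxcr3, were below limma's unadjusted p of 0.05. The IL-21 and IL-4 comparisons share libraries, so these counts are not independent. Since the members were chosen with earlier results of these data known, the counts beside the shares of all genes are descriptions and no test.

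Whether IL-4 altered the effect of IL-21 was tested as their interaction, the IL-21 effect with IL-4 minus the effect without it. The 24 h value was -2.15 ± 0.30 for Tbx21 (adjusted p = 0.000104) and -1.11 ± 0.29 for Itgax (adjusted p = 0.0215), 2 of 5 genes where 5.8% of all were called. Itgam gave -1.60 ± 0.29, with an adjusted p of 0.00194 in the fit with no filter. Zeb2 (0.57 ± 0.47, adjusted p = 0.518), Zbtb32 (0.27 ± 0.32, adjusted p = 0.665) and Cxcr3 (-0.04 ± 0.26, adjusted p = 0.956) were not called. These interactions depend on the scale: with a pseudocount of 0.1 TPM they were -1.37 for Tbx21 and -1.42 for Itgax and neither was called (adjusted p = 0.248 and 0.333), and Itgam was at -2.17. On the ratio scale IL-21 raised mean Tbx21 52.0-fold with IL-4 and 98.5-fold without it. The Itgax interaction was also lost when only the 24 h groups were fitted (adjusted p = 0.0571) and without replicate 2 of anti-CD40 (adjusted p = 0.05005) or of anti-CD40 with both cytokines (adjusted p = 0.0575). At 6 h 0 of 6 interactions were called by limma (0.412% of all genes called), and 1 gene, Tbx21, was below limma's unadjusted p of 0.05 (-0.73 ± 0.30, adjusted p = 0.523).

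**Figure D4:**
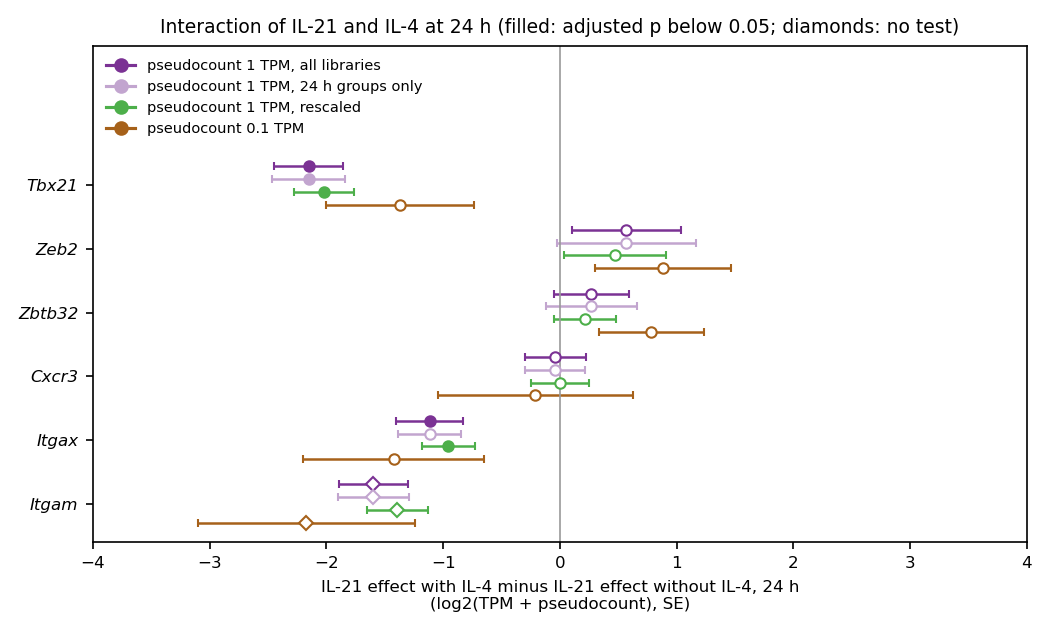
Interaction of IL-21 and IL-4 at 24 h (x axis, IL-21 effect with IL-4 minus IL-21 effect without IL-4, on log2(TPM + pseudocount), with SE) for each gene (y axis) under 4 settings, filled where the adjusted p was below 0.05. Tbx21 and Itgax lie left of 0 under every setting and neither is filled with a pseudocount of 0.1 TPM; the open diamonds are Itgam, whose direction was set by the filter.

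The growth of the IL-21 effect from 6 to 24 h was called for 2 of 5 genes on anti-CD40 (Tbx21 and Itgax; 4.44% of all genes called) and for 2 of 6 on anti-CD40 and IL-4 (Zeb2 and Zbtb32; 4.24% called). Different members were called in the 2 settings, and whether the growth itself differed between them was not tested.

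Relative to naive cells, anti-CD40 alone changed 4 of 6 genes at 6 h, where 29.9% of all tested genes were called, and 3 of 6 at 24 h, where 26.8% were called. Zbtb32 was the one that rose. Tbx21 fell by 1.14 ± 0.21 at 6 h (adjusted p = 0.000199) and by 1.13 ± 0.21 at 24 h (adjusted p = 0.000377). Itgax had 0.307, 0.0676 and 0.202 TPM with anti-CD40 at 6 h, against 2.67, 1.07 and 1.16 TPM in naive cells, and fell by 1.10 ± 0.20 at 6 h (adjusted p = 0.000209) and by 1.13 ± 0.20 at 24 h (adjusted p = 0.000241). Cxcr3 had 0.312, 0.124 and 0.769 TPM with anti-CD40 at 6 h, against 1.45, 0.797 and 1.42 TPM in naive cells, and fell by 0.68 ± 0.19 (adjusted p = 0.00764). That call was lost without anti-CD40 replicate 2 (adjusted p = 0.0596) and when only the 2 groups were fitted (adjusted p = 0.0734), and at 24 h the difference was -0.49 ± 0.19 (adjusted p = 0.0574), called after rescaling (-0.65, adjusted p = 0.00702). Cxcr3, counted among the 4 at 6 h, passed the filter mostly through naive libraries, so the filter favoured a fall from naive cells. In the fit with no filter on low values 4 of 6 were again called at 6 h. No library with anti-CD40 alone reached the lowest naive library for Tbx21, Itgax or Itgam. Itgam differed by -0.46 ± 0.21 at 6 h (adjusted p = 0.104) and -0.44 ± 0.21 at 24 h (adjusted p = 0.124), and was called at both times after rescaling (adjusted p = 0.0294 and 0.0342). Zeb2 differed by -0.66 ± 0.33 at 6 h (adjusted p = 0.143), called after rescaling (-0.80, adjusted p = 0.0477) and without the 2 libraries of low mitochondrial share (-0.84, adjusted p = 0.0341).

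Culture and stimulation cannot be told apart in these comparisons. Macrophage and monocyte markers summed to 5.10 to 13.3 TPM in the 6 libraries with anti-CD40 alone, against 107 to 144 TPM in naive libraries, where none of the 12 was at 0 in all 3. NK cell markers summed to 0.638 to 1.55 TPM with anti-CD40 alone, against 2.44 to 3.32 TPM in naive libraries. Dendritic cell markers summed to 7.77 to 8.29 TPM at 6 h and 3.29 to 6.67 TPM at 24 h with anti-CD40 alone, against 8.35 to 10.2 TPM in naive libraries. Of these, Clec9a did not exceed 0.139 TPM, Xcr1 0.172 TPM and Batf3 1.05 TPM with anti-CD40 alone, against 0.790 to 3.60, 0.732 to 1.16 and 3.65 to 4.70 TPM in naive libraries. The rest of this list went the other way at 6 h: its sum was higher with anti-CD40 alone than in naive libraries. The part of these cell types in the lower Itgax, Itgam, Tbx21 and Cxcr3 levels after culture was not tested.

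The other genes of the T-bet-positive programme were read from lists chosen with earlier results of these data known. Of 13 tested other genes high in T-bet-positive or age-associated B cells, 8 were higher and 3 lower with IL-21 on anti-CD40 at 24 h, with a median of 1.33 beside 0.23 for all genes, of which 17.8% were higher and 6.33% lower. Cd86, a costimulatory ligand, had 30.2 TPM with IL-21 and 2.61 TPM without (3.11 ± 0.21, adjusted p = 4.02e-10). Sox5 had 6.48 TPM with IL-21 and 0.286 TPM without (2.54 ± 0.39, adjusted p = 5.06e-05), and the IgG2b constant gene Ighg2b had 67.0 TPM with and 14.1 TPM without (2.20 ± 0.31, adjusted p = 1.54e-05). Cd80, another costimulatory ligand of the same list, went the other way, with 0.811 TPM with IL-21 and 10.4 TPM without (-2.66 ± 0.21, adjusted p = 4.39e-09). Of 10 genes low in such cells, 6 were lower and 1 higher, with a median of -0.79, and 8 were lower after rescaling. Among them were the complement receptor gene Cr2 (-2.52 ± 0.31) and Fcer2a, which encodes CD23 (-3.64 ± 0.58), while the repressor gene Bach2 was higher (1.70 ± 0.28). At 6 h on anti-CD40, 2 of the 13 genes high in such cells were higher with IL-21 and 3 lower. Their median was -0.07 beside 0.10 for all genes, of which 7.43% were higher and 4.68% lower. Of the 10 genes low in such cells, 2 were higher and 4 lower at 6 h, with a median of -0.58.

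On anti-CD40 and IL-4 at 24 h, 9 of the 13 genes high in such cells were higher and 2 lower with IL-21 (median 1.01 beside 0.38 for all genes, of which 21.8% were higher and 2.39% lower), or 7 and 3 after rescaling. Of the 10 genes low in such cells, 3 were higher and 2 lower there (median 0.18), or 2 and 2 after rescaling. With IL-4 present at 6 h, IL-21 left 2 of the 13 higher and 0 lower, or 2 and 3 after rescaling. Their median was -0.13 beside 0.06 for all genes, of which 1.25% were higher and 1.28% lower. Of the 10, 1 was higher and 1 lower at 6 h. IL-4 added to anti-CD40 and IL-21 at 24 h lowered 5 of the 13 and raised 2, or 4 and 2 after rescaling, where 4.53% of all genes were lower and 2.22% higher. The list's median of -0.13 lay near that of all genes, -0.14. Fcrl5, which encodes an Fc receptor-like protein, had 18.7 TPM with IL-4 and 91.0 TPM without (-2.21 ± 0.32, adjusted p = 4.46e-05), and Ighg2b had 11.6 TPM with IL-4 and 67.0 TPM without (-2.44 ± 0.31, adjusted p = 8.27e-06). Lgals1, a galectin gene, rose with IL-4 by 1.78 ± 0.21 (adjusted p = 2.44e-06).

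Of 14 genes that T-bet drives in T cells and NK cells, 6 passed the filter, and with IL-21 on anti-CD40 at 24 h 3 were higher and 1 lower, or 2 and 1 after rescaling. Among all tested genes 17.8% were higher and 6.33% lower. The 1 lower gene was Ccl5, which encodes a chemokine (-2.48 ± 0.40, adjusted p = 7.61e-05). Eomes, the other T-box factor of this kind, did not pass the filter and averaged 0.422 ± 0.0459 TPM with anti-CD40 and IL-21 at 24 h.

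Among the receptors and signal factors upstream of Tbx21, 4 of 15 tested genes were higher and 2 lower with IL-21 on anti-CD40 at 24 h, or 4 and 3 after rescaling, beside 17.8% higher and 6.33% lower among all genes. The IL-21 receptor gene Il21r had 462 ± 107 TPM with IL-21 and 127 ± 24.6 TPM without (1.84 ± 0.36, adjusted p = 0.000576), and Stat3 had 149 TPM with and 39.8 TPM without (1.82 ± 0.34, adjusted p = 0.00042). Stat4 was lower with IL-21 (26.6 ± 3.11 against 39.8 ± 2.14 TPM, -0.57 ± 0.16, adjusted p = 0.0117). Of 9 tested genes of the IL-4 arm or that counter T-bet, IL-4 raised 3 and lowered 1 with IL-21 at 24 h, before and after rescaling. Over all tested genes 2.22% were higher and 4.53% lower in that comparison. The raised genes included the feedback gene Cish (111 against 0.806 TPM, 5.98 ± 0.31, adjusted p = 1.01e-11) and the IL-4 receptor gene Il4ra (233 against 78.4 TPM, 1.59 ± 0.45, adjusted p = 0.0349).

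Likeness to Tbx21 was described by Pearson's r of the 9 group means of log2(TPM + 1), among 8143 protein-coding genes reaching a mean of 5 TPM in some group. The genes compared share libraries and scale, Tbx21 has a single highest group, and r is given as a description. The highest values outside the members belonged to Fam49b (0.960), Ssbp4 (0.957), Ier5l (0.952), Ifitm1 (0.945), Smc3 (0.940) and Lefty1 (0.939), of which Smc3 had 0.713 after rescaling. Ifitm1, an interferon-inducible membrane protein gene, averaged 26.6 TPM with anti-CD40 and IL-21 at 24 h and 3.32 TPM where IL-4 was added. Among the members, r with Tbx21 was 0.923 for Zeb2, 0.822 for Itgam, 0.744 for Itgax, 0.718 for Zbtb32 and 0.125 for Cxcr3. Itgax and Itgam had an r of 0.921 with each other.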

How the data were processed

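Primary splenic B cells of wild-type mice gave 27 polyadenylated RNA libraries in 9 groups of 3, grouped by their labels. The authors deposited 1 table of TPM for 35604 genes and no read counts. Per the submitters' processing notes, quantification used Salmon 1.9.0 and the build GRCm38 (mm10); strand setting and annotation are not given in the sources used here. The TPM values summed to 766384 to 825365 per library, and depth, and so the precision of low values, is unknown. An exact 0 can be a failed estimate, so groups that hold one for a member are given library by library. No pair of libraries was identical (0 pairs).

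Gene IDs were matched to GENCODE M21 (35254 matched). The 12147 genes at 1 TPM or more in 3 or more libraries were fitted as log2(TPM + 1) with limma 3.58.1 in R 4.3.3, with 1 mean per group, variances following a trend and 18 residual degrees of freedom, after a test on simulated data. The Benjamini-Hochberg adjustment ran over all 12147 genes, separately for each comparison. All 6 members passed the filter, Cxcr3 and Itgam on 3 libraries each; Itgam, which passed through 1 group, is left out of counts in comparisons with that group. Alternatives were rescaling by median of ratios, a pseudocount of 0.1 TPM, a filter at 5 TPM or none, the replicate number as a block, only the compared groups, each library left out, and, chosen after seeing the data, leaving out 2 libraries with low mitochondrial shares. Same-numbered libraries deviated together (every correlation over 0.1) in 3 of the 6 h comparisons: IL-21 on anti-CD40 (0.186 to 0.335), IL-21 with IL-4 present (0.183 to 0.377) and IL-4 on anti-CD40 (0.107 to 0.382). No label says what the number marks.

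The members and lists were chosen with earlier results of these data known. Named beside the members are at most 4 called genes of each list with the largest differences, partners, ligands and receptors of members, and the 6 genes most like Tbx21. Some genes that this rule names are not reported here. Start-site windows came from RefSeq (GRCm38.p6). Protein sequences were not used here.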

Additional observations from a re-analysis of the deposited data

Results flagged for a closer look

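The effect of IL-21 at 24 h differed with and without IL-4, by the interaction test, for Tbx21 (-2.15) and Itgax (-1.11). Both values were negative in each of the 12 fits that left out 1 library, and neither was called with a pseudocount of 0.1 TPM. The effect of IL-21 on anti-CD40 differed between 24 h and 6 h for Tbx21 (2.10) and Itgax (1.52), and on anti-CD40 and IL-4 for Zeb2 (2.03) and Zbtb32 (1.505). Dixon's rule for a sample far from the others was not applied, since every group holds 3 libraries.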

How the results depend on the processing

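Across the 6 genes and 14 comparisons, leaving out the 4 of Itgam whose direction the filter set, the direction and the call of 72 of 80 results held with a pseudocount of 0.1 TPM, 78 with no filter, 71 after median-of-ratios rescaling, 77 with the replicate block and 70 when only the compared groups were fitted. A filter at 5 TPM left no value for Cxcr3, Itgax and Itgam, and so lowered the members called by construction; the cause was not tested for the other changes below. Depth is not known and limits what can be said of genes near or below 1 TPM. Under rescaling 3 values changed sign, all uncalled: Cxcr3 with IL-21 on anti-CD40 at 24 h (-0.0507), Zeb2 with IL-4 on anti-CD40 and IL-21 at 24 h (0.0227) and the Cxcr3 interaction at 24 h (0.0037). Members called went to 0 with a pseudocount of 0.1 TPM for IL-4 on anti-CD40 and IL-21 at 6 h (from 2) and for the 24 h interaction (from 2), and to 1 for the growth of the IL-21 effect on anti-CD40 (from 2). At a filter of 5 TPM they went to 2 for anti-CD40 against naive at 6 h and to 1 for IL-4 at 24 h on either background, the 24 h interaction and the growth of the IL-21 effect on anti-CD40. After rescaling 1 was called for IL-4 on anti-CD40 at 6 h and 5 for anti-CD40 against naive at 24 h. With only the compared groups 0 were called for IL-4 on anti-CD40 at 24 h, for IL-4 on anti-CD40 and IL-21 at 6 h and for the growth with IL-4, and 1 for the 24 h interaction.

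The replicate block called 1 member for IL-4 on anti-CD40 at 6 h (Zbtb32) and 96 genes for the 6 h interaction. In comparisons where same-numbered libraries did not all deviate together, it also called Zbtb32 for the growth of the IL-21 effect on anti-CD40 (adjusted p = 0.0442) and Cxcr3 for anti-CD40 against naive at 24 h (adjusted p = 0.0397). The block changed no other call of a member. Deviations from the group mean were also correlated with those of libraries in other groups and averaged by replicate number. For 23 of 27 libraries the highest mean was that of their own number.

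Genes called over the whole table moved more than 1.5 times as follows. The 6 h interaction had 50, and 24 with a pseudocount of 0.1 TPM, 219 with no filter and 23 at 5 TPM. With no filter there were 3212 for IL-21 on anti-CD40 at 6 h, 1778 and 1346 for IL-4 on anti-CD40 and IL-21 at 6 h and 24 h, and at 5 TPM 250 for that comparison at 6 h. After rescaling there were 545 for IL-21 with IL-4 present at 6 h, 756 for IL-4 on anti-CD40 at 6 h, 1346 for the 24 h interaction and 806 for the growth with IL-4. With only the compared groups there were 342 for IL-21 with IL-4 present at 24 h, 913 for IL-4 on anti-CD40 at 24 h, 174 and 504 for IL-4 on anti-CD40 and IL-21 at 6 h and 24 h, 289 for the 24 h interaction, 206 for the growth with IL-4 and 2167 for anti-CD40 against naive at 24 h. Leaving out the 2 libraries with low mitochondrial shares, the number called became 5890 for IL-21 with IL-4 present at 24 h, 5979 for IL-4 on anti-CD40 at 24 h, 3015 for the 24 h interaction and 3909 for the growth with IL-4.

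Over the fits that left out 1 library, members called ranged from 0 to 3 for IL-4 on anti-CD40 at 24 h, 1 to 2 for the growth with IL-4, 1 to 2 for the 24 h interaction and 1 to 2 for IL-4 on anti-CD40 and IL-21 at 6 h. For IL-21 with IL-4 present at 6 h, 2 members were called in each such fit, against 3 in the main fit. Genes called ranged from 939 to 1262 for IL-21 on anti-CD40 at 6 h, 21 to 43 for the 6 h interaction, 2409 to 5697 for IL-4 on anti-CD40 at 24 h, 262 to 3408 for the growth with IL-4, 962 to 5634 for IL-21 with IL-4 present at 24 h, 501 to 2460 for the 24 h interaction, 287 to 515 for IL-4 on anti-CD40 and IL-21 at 6 h and 535 to 763 for IL-4 on anti-CD40 and IL-21 at 24 h. Itgax, not called in these comparisons, changed sign within -0.13 to 0.0637 for IL-4 on anti-CD40 at 6 h and -0.14 to 0.0532 for IL-21 with IL-4 present at 6 h. Cxcr3, not called in these comparisons, changed sign within -0.11 to 0.19 for IL-21 on anti-CD40 at 24 h, -0.21 to 0.0889 for the 24 h interaction, -0.0578 to 0.0127 for IL-21 with IL-4 present at 24 h, -0.0436 to 0.12 for IL-21 with IL-4 present at 6 h and -0.14 to 0.0196 for the growth with IL-4. Itgam, not called in these comparisons, changed sign within -0.0246 to 0.0251 for IL-21 with IL-4 present at 6 h, -0.15 to 0.31 for IL-21 on anti-CD40 at 6 h, -0.43 to 0.0333 for IL-4 on anti-CD40 and IL-21 at 6 h and -0.32 to 0.14 for the 6 h interaction. Zeb2, not called in these comparisons, changed sign within -0.47 to 0.18 for IL-4 on anti-CD40 and IL-21 at 24 h.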
